A study of Mus musculus with 8 samples.

Results

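The clusters of microRNA genes that mouse embryonic stem cells are known for were examined, the Mir302/Mir367 cluster (Mir302b, Mir302c, Mir302a, Mir302d and Mir367) and the Mir290 to Mir295 cluster (Mir293, Mir294 and Mir295 among its members). Each cluster was taken as the span of its annotated hairpins plus 50 kb on either side, and every peak of 8 peak lists that overlapped these windows by at least 1 bp was collected. This gave 40 of the 425777 peaks in the series, 29 around the Mir302 cluster and 11 around the Mir290 cluster. Peaks that overlapped or touched were merged, which left 9 of 123412 regions, 7 at Mir302 and 2 at Mir290.

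The lists came from CUT&Tag, a method that brings a transposase to chromatin with an antibody and sequences the DNA it cuts. The cells were mouse embryonic fibroblasts (MEFs) from a mouse line with an Oct4-GFP reporter, at day 5 of reprogramming by retroviral factors. All were given Oct4. The second factor was wild-type Nanog (labelled Nanog, called NanogWT) or NanogN70, taken from the study's text to be NanogBiD, a fusion of NANOG with the BRG1-interacting domain of SS18. Both forms carried a FLAG tag. Antibodies were directed at FLAG, at BRG1 (Smarca4, an ATPase of the BAF chromatin remodelling complex), at H3K27ac (a mark of active promoters and enhancers) and at H3K4me1 (a mark of enhancers, active or not; 1 label writes H3K4me). Each of the 8 groups had 1 library, in which the authors had merged replicates, so there was no spread between cultures to set a difference against and no test between arms was made. A peak gives the average over all cells of a culture, so more cells bound and stronger binding per cell cannot be told apart. The shortest list, BRG1 in NanogWT, had 30859 peaks and the longest, FLAG in NanogBiD, had 74782. The cells still carried the marks of fibroblasts. An H3K27ac peak lay within 2 kb of a start site for 9 of 10 fibroblast marker genes in both arms (Prrx1 had none), as it did for 55.6% of all 21938 protein-coding genes, and for 0 of 5 pluripotency genes in either arm. Of these 5, Pou5f1, the gene of the OCT4 that the cells were also given, had a FLAG peak of 44 tags and a BRG1 peak of 67 tags in NanogBiD only, and H3K4me1 peaks of 46 tags in NanogWT and 78 in NanogBiD. Tags of the added and of the cells' own Oct4 cannot be told apart in these lists. Sox2 went the other way, with a FLAG peak in NanogWT only (10 tags). FLAG had no peak at 3 of the 5 pluripotency genes, and BRG1 none at 4. H3K4me1 had 22 tags in NanogWT and 23 in NanogBiD at Sox2, and 20 and 15 at Esrrb. The share of all genes with FLAG or BRG1 at a start site in 1 arm only is not given here. Krt8 (of 4 epithelial markers), Cdh5 and Kdr (of 3 endothelial markers) and Ptprc (of 3 blood markers) had such an H3K27ac peak in NanogBiD only. So did 4.29% of all protein-coding genes. Cd68 (blood) had one in both arms. The part of these cells in the peaks below was not tested.

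A microRNA is cut from a hairpin in a longer transcript and represses messenger RNAs that pair with its seed, the bases 2 to 8. Members of the Mir290 to Mir295 cluster are among the most abundant microRNAs of mouse embryonic stem cells. In these cells OCT4, SOX2 and NANOG are known to bind near both clusters. MicroRNAs of both clusters are known to repress inhibitors of the cell cycle, and the Mir302/Mir367 cluster is known to promote reprogramming. Fibroblasts are not known to express either cluster. The study picked out the miR-302 family from ATAC-seq, a measure of open chromatin, in which it failed to open in NanogWT. The study also reported that this family promotes reprogramming when added to wild-type Nanog and Oct4. It then named miR-302 as a target of NanogBiD and BRG1, from ATAC-seq together with these same CUT&Tag libraries. The selection of miR-302 thus rests in part on these libraries and is not independent of the values below.

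The mature sequences show why the clusters are considered together. All 14 hairpin genes of the annotation matched the RefSeq table (GRCm38.p6), with 26 mature sequences. The 3p strands of the plus-strand hairpins are printed below, 5′ to 3′, with the seed in capitals. The mature 3p strands of Mir302a and Mir292 were not analysed here.

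miR-302b-3p: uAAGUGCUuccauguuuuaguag
miR-302d-3p: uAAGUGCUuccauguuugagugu
miR-291a-3p: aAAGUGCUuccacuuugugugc
miR-294-3p: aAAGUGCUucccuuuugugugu
miR-295-3p: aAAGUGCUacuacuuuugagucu
miR-302c-3p: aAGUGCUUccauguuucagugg
miR-290a-3p: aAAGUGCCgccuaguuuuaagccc
miR-291b-3p: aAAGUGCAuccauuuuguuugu
miR-293-3p: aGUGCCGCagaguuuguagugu
miR-367-3p: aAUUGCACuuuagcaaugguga

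The seed AAGUGCU was shared by 5 mature sequences, from Mir302b and Mir302d on chromosome 3 and from Mir291a, Mir294 and Mir295 on chromosome 7. No others of the 1738 mature sequences examined had it at bases 2 to 8. This says nothing of the 3p strands of Mir302a and Mir292, which were not among them. The listed miR-302c-3p holds the same 7 letters from base 1. The seeds of miR-290a-3p and miR-291b-3p were AAGUGCC and AAGUGCA. Those of miR-293-3p and miR-367-3p were different words, GUGCCGC and AUUGCAC.

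In mm10 the Mir302 hairpins lie at chr3:127545228-127545807, 580 bp on the plus strand, inside an intron of Larp7, whose own transcript runs on the minus strand. Larp7 encodes a protein of the 7SK ribonucleoprotein, which restrains transcription elongation. The order along the strand is Mir302b, Mir302c, Mir302a, Mir302d and Mir367. The Mir290 hairpins lie at chr7:3218626-3220841, 2216 bp with 9 hairpin genes, of which Mir290b and Mir292b are annotated on the minus strand, and they overlap the annotated span of Nlrp12, a gene of the NOD-like receptor family that runs on the minus strand. The reference at the Mir302 window had no unresolved bases. The Mir290 window had 12 assembly gaps of 9997 unresolved bases in all, 9.78% of the window, where no read can align. Repeats covered 33.8% of the Mir302 window and 42.8% of the Mir290 window. The authors removed repetitive reads, and the part of repeats and gaps in the peaks found was not tested.

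Binding of NANOG and BRG1 at the start of the Mir302 cluster was compared first between the arms. FLAG peaks were found in both arms just before the first hairpin, and the NanogBiD peak was several times higher. The NanogWT peak was weak, and FLAG was left there in NanogBiD only when peaks were limited to scores of 100 or more, to the best 20000 of each list by score, or to heights of 15 tags or more. The H3K27ac call ended under the limit on height, and the NanogBiD BRG1 and FLAG calls ended under none of the 3. BRG1 and H3K27ac peaks were found there in NanogBiD only, and H3K4me1 had no peak in either arm. The region, chr3:127544542-127545497, was 956 bp long, with the first hairpin (Mir302b), Mir302c and the edge of Mir302a inside it. The sequence around the NanogBiD FLAG summit is shown because the FLAG summits of both arms and the BRG1 summit all fell within it. It covers chr3:127544713-127545012 (mm10, plus strand, 300 bases, the summit at base 150), and capitals mark words resembling the motifs of SOX factors and NANOG.

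Mir302 start region: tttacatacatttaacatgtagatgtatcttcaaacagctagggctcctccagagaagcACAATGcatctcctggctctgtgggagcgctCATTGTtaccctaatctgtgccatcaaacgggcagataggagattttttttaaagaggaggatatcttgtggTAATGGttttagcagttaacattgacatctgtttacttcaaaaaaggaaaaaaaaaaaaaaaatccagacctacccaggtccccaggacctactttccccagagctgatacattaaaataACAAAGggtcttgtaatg

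The words were searched on both strands. The SOX word ACAATG occurred from base 60 and, on the minus strand (read here as CATTGT), from base 91. The second SOX word, ACAAAG, occurred from base 283. The NANOG word TAATGG occurred from base 163, next to the FLAG summit. No match overlapped another. Short words are common, and of 74767 windows of 300 bases around NanogBiD FLAG summits 20.2% held ACAATG, 24.2% ACAAAG and 17.3% TAATGG. Words without a match here were the OCT octamer ATGCAAAT (in 5.43% of the windows), AP-1 TGANTCA (24.5%), TEAD GGAATG (18.4%), RUNX TGTGGTT (8.80%), KLF GGGTGTGG (2.52%) and ESRRB TCAAGGTCA (0.358%). Each match is a match of letters only.

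The summit height is the number of tags piled up at the summit, not scaled to the depth of the library, which is unknown. In NanogWT the FLAG peak of the start region had a height of 8 tags and a score of 72.7 (the peak caller's significance score, at least 50 in every list). Its summit lay 317 bp before the first hairpin and its end 61 bp before it. In the NanogBiD arm FLAG had 30 tags and a score of 270.8, with the summit 366 bp before the first hairpin and the end 269 bp past its first base. The NanogBiD BRG1 peak had a height of 18 tags and its summit 412 bp before the hairpin, and the NanogBiD H3K27ac peak a height of 12 tags and its summit 209 bp before it. Peaks of the NanogWT BRG1 and H3K27ac lists were not called there, so no ratio is given for them. The nearest NanogWT BRG1 peak before the cluster was 135.592 kb away, and the nearest after it 6.728 kb away at the Larp7 start site.

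**Figure D1:**
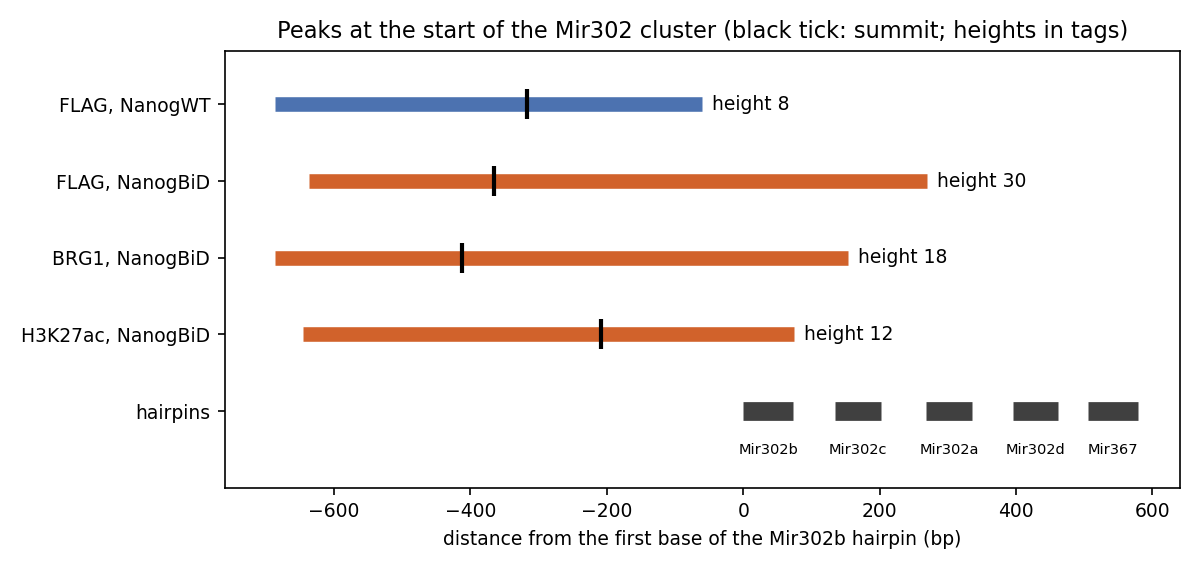
Peaks of 4 lists at the start of the Mir302 cluster. Bars span each peak, black ticks mark summits, grey boxes are the 5 hairpins, and the x axis is the distance from the first base of the Mir302b hairpin in bp. The summits lie 209 to 412 bp before the first hairpin, and the FLAG height is 8 tags in NanogWT and 30 tags in NanogBiD.

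The ratio of the FLAG heights, NanogBiD over NanogWT, was 3.75 (95% interval 1.68 to 9.47, from the exact binomial distribution), or 1.91 on the log2 scale. The interval covers counting error only, and a summit is the highest point of its peak. There were 44383 regions with FLAG peaks of both arms. Their median log2 ratio was 0.15, and 7.73% of them were at least 2-fold higher in NanogBiD. A ratio at or above that of the Mir302 start region was found at 106 of them, 0.239%. Divided by the median ratio, the start region's ratio was 3.38. The NanogWT peak was thus among the lowest of its list, and the NanogBiD peak among the higher ones of its own. Of the NanogWT FLAG peaks, 98.3% were at least as high as this one, while 10.4% of the NanogBiD FLAG peaks were. The NanogBiD BRG1 height was reached by 26.0% of the peaks of its list and the NanogBiD H3K27ac height by 79.2%.

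**Figure D2:**
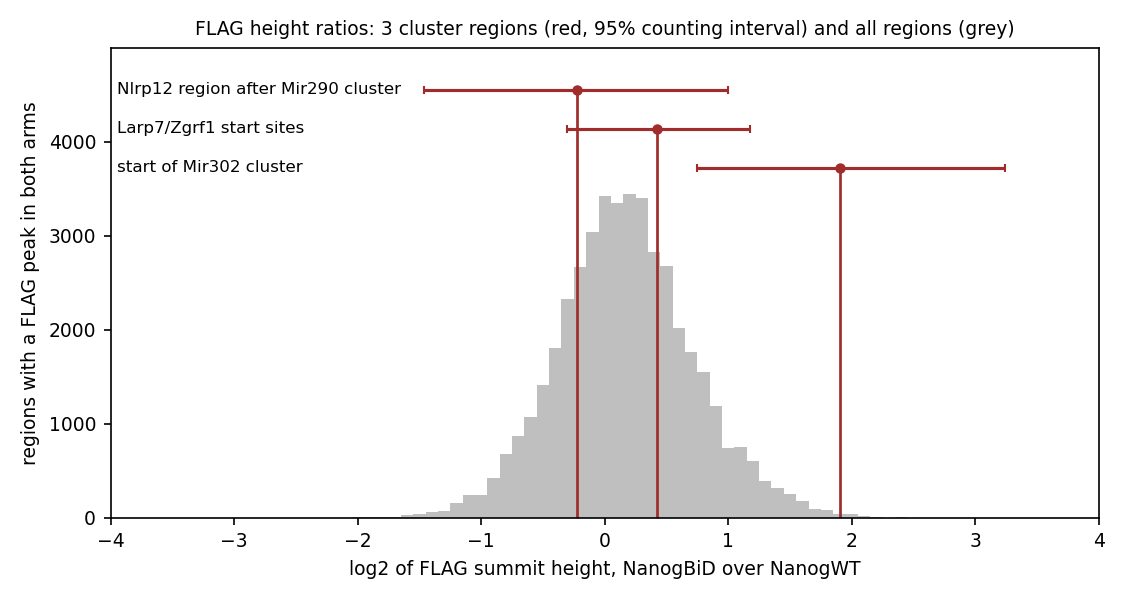
Histogram of log2 FLAG summit height ratios, NanogBiD over NanogWT, over the 44383 regions with a FLAG peak in both arms (grey), with the 3 such regions of the 2 windows in red. Bars are 95% intervals for counting error, and the height of the points has no meaning. The start of the Mir302 cluster, at 1.91, is in the right tail, and the others, at 0.43 and -0.22, are within the body.

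The gain of BRG1 at a site where NANOG bound in both arms was common, and so the Mir302 start region was set beside the whole genome. Of the regions with FLAG in both arms, 31.9% had BRG1 in NanogBiD only, and 10.1% (4496 regions) had BRG1 and H3K27ac in NanogBiD only, as the start region did. At 1189 of these the FLAG height was also at least 2-fold higher in NanogBiD, and 332 of the 1189 had no H3K4me1 peak in either arm. The combination of peaks was thus not particular to Mir302. The FLAG ratio of the start region was reached by 63 of the 4496.

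The window also held a promoter with high peaks in both arms and several low sites. The highest peaks were at the start sites that Larp7 and Zgrf1 (a helicase of DNA repair) share, 6.615 kb past the last hairpin at chr3:127552422-127554215. There FLAG had 29 tags in NanogWT against 39 tags in NanogBiD, and the ratio was 1.34 (0.811 to 2.25). The BRG1 heights were 31 and 31 tags, a ratio of 1.0 (0.588 to 1.70). H3K27ac had 33 and 38 tags, a ratio of 1.15 (0.703 to 1.89), and H3K4me1 had 16 and 16. The intervals cover counting error only, that for FLAG overlapped the interval at the microRNA start, and the difference between the sites could not be tested without replicates.

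At the start site of Ank2, which encodes an ankyrin that links membrane proteins to the spectrin skeleton, FLAG and BRG1 peaks were found in NanogBiD only. The region, chr3:127497698-127499979, ended 45.249 kb before the cluster. The NanogBiD heights were low, at 10 tags for FLAG, 7 for BRG1 and 13 for H3K27ac, and NanogWT had no peak of these targets there. H3K4me1 had 15 tags in NanogWT and 14 tags in NanogBiD. This was 1 of 3 regions with a BRG1 peak in the window, and it lost its FLAG and BRG1 calls together under the limits on score, list size and height named above. Over the genome, FLAG and BRG1 were both found in NanogBiD only at 11.1% of the 93352 regions of the FLAG and BRG1 lists. A region 36.171 kb before the cluster, outside any gene, had a FLAG peak in NanogBiD only, with 12 tags and no peak of another target.

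The 3 regions left were not near a hairpin and had FLAG heights of 9 to 11 tags. FLAG and H3K27ac were found together in 1 arm only at each. Over the genome both were in NanogBiD only at 4.31% of FLAG regions and in NanogWT only at 2.14%. All FLAG calls of these 3 regions ended under the limits on score, list size and height. At 32.55 kb before the cluster the peaks were in NanogWT only (10 and 14 tags), and at 14.378 kb before it (9 and 12 tags) and 26.653 kb after it, inside Zgrf1 (11 and 11 tags), they were in NanogBiD only. H3K4me1 was found in both arms at the first and the last of these and in NanogWT only at the middle one (13 tags).

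**Figure D3:**
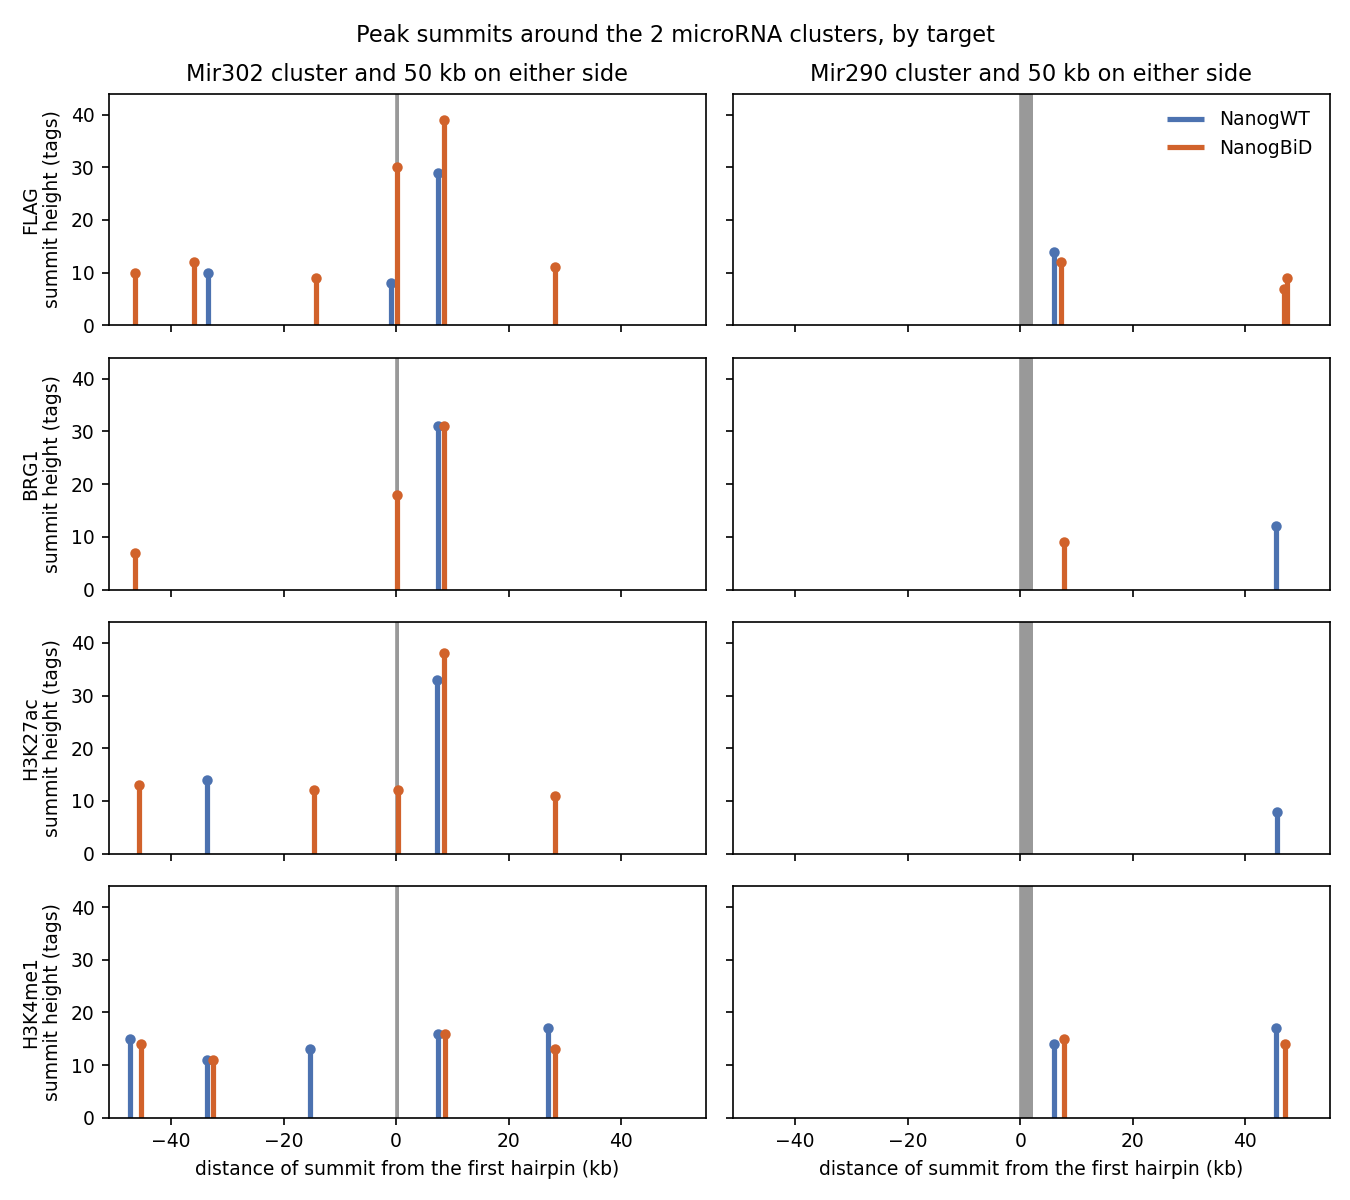
Summit heights in tags of every peak in the Mir302 window (left) and the Mir290 window (right), by target, against the distance of the summit from the first hairpin in kb. Grey bands are the clusters, and the arms are drawn 0.6 kb to either side of the true position. For FLAG, BRG1 and H3K27ac the tallest peaks of each arm are those at the start sites of Larp7 and Zgrf1, while H3K4me1 heights lie between 11 and 17 tags throughout. The FLAG peak at the start of the Mir302 cluster has 30 tags in NanogBiD and 8 in NanogWT, and no peak lies before the Mir290 cluster.

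By target, the Mir302 window held 3 FLAG peaks in NanogWT and 6 in NanogBiD, 1 and 3 BRG1 peaks, 2 and 5 H3K27ac peaks, and 5 and 4 H3K4me1 peaks. Of its 7 regions with FLAG, 4 were found in NanogBiD only, where 33.5% of all FLAG regions were, and 1 in NanogWT only (15.5% of all). Of 3 regions with BRG1, 2 were found in NanogBiD only (47.9% of all) and 0 in NanogWT only (9.44%). Of 6 with H3K27ac, 4 were found in NanogBiD only (28.7%) and 1 in NanogWT only (14.2%). Of 5 with H3K4me1, 0 were found in NanogBiD only (16.8%) and 1 in NanogWT only (34.1%). With 3 to 7 regions a target, the shares cannot be set apart from those of the genome.

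The Mir290 cluster, which carries the same seed, was then examined for such a site. No peak of any list overlapped its hairpins, and none lay in the 50 kb before them. The nearest FLAG peak before the cluster, in NanogBiD with 10 tags, was 67.856 kb away, and none of the other 7 lists had a peak between the cluster and the start of chromosome 7. The cluster lies near the beginning of the chromosome's sequenced part.

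The nearest region after the hairpins, 4.207 kb past the last (chr7:3225048-3226006), overlapped an exon of Nlrp12. Both arms had a FLAG peak there, of 14 tags in NanogWT and of 12 tags in NanogBiD. The ratio was 0.857 (0.362 to 1.997). BRG1 was found in NanogBiD only, at 9 tags, a height that 88.8% of the peaks of that list reached. H3K4me1 was found at 14 tags in NanogWT and 15 in NanogBiD, and H3K27ac had no peak. The first bases of the region lay in an assembly gap of 100 unresolved bases that ends at position 3225080, and what this did to the peaks was not tested. The sequence around the NanogBiD FLAG summit, chr7:3225083-3225382 (mm10, plus strand, 300 bases), is printed for comparison with that of Mir302. It held none of the words searched, so it has no capitals.

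Mir290 nearest region: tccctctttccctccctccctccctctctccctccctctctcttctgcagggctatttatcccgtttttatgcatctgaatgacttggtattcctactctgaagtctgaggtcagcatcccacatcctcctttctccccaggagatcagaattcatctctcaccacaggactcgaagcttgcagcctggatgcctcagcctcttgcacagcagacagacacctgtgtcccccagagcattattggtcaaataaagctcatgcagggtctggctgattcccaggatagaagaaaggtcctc

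The other region of the window, 43.498 kb after the cluster at chr7:3264339-3265643, overlapped Gm20553. BRG1 (12 tags) and H3K27ac (8 tags) were found there in NanogWT only, FLAG in NanogBiD only (peaks of 7 and 9 tags), and H3K4me1 in both arms (17 tags in NanogWT and 14 in NanogBiD). In all, the Mir290 window held 1 FLAG peak in NanogWT and 3 in NanogBiD, 1 and 1 BRG1 peaks, 1 and 0 H3K27ac peaks, and 2 and 2 H3K4me1 peaks. The NanogBiD FLAG peaks here reached at most 12 tags, against 30 at the start of Mir302.

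The clusters were next set beside all other annotated microRNA genes. The 2202 microRNA genes of the annotation formed 1802 clusters when those within 10 kb were joined. Both Mir302 and Mir290 had a BRG1 peak within 5 kb in NanogBiD only, as 9.38% of the clusters did (169). The Mir290 peak, of 9 tags and a score of 75.1, was lost under each of the limits on score, list size and height, and the Mir302 peak under none. A BRG1 and an H3K27ac peak were both gained in NanogBiD at Mir302 and at 2.33% of the clusters (42). Within 50 kb, 970 clusters had more BRG1 peaks in NanogBiD than in NanogWT and 191 had fewer. For FLAG the numbers were 841 and 329, for H3K27ac 648 and 271, and for H3K4me1 301 and 868. The surplus of NanogBiD peaks at Mir302, 3 for FLAG, 2 for BRG1 and 3 for H3K27ac, was reached by 10.7%, 28.6% and 3.50% of the clusters. The surplus at Mir302 was smaller under other limits: with heights of 15 tags or more it was 1, 1 and 0, and with the best 20000 peaks of each list 1, 1 and 2, and these were not ranked. Mir290 differed by 2 FLAG peaks, 0 BRG1 peaks and -1 H3K27ac peaks, and these were not ranked. Under the limits on score, list size and height, FLAG and H3K27ac differed by 0 there, and BRG1 by -1, -1 and 0.

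**Figure D4:**
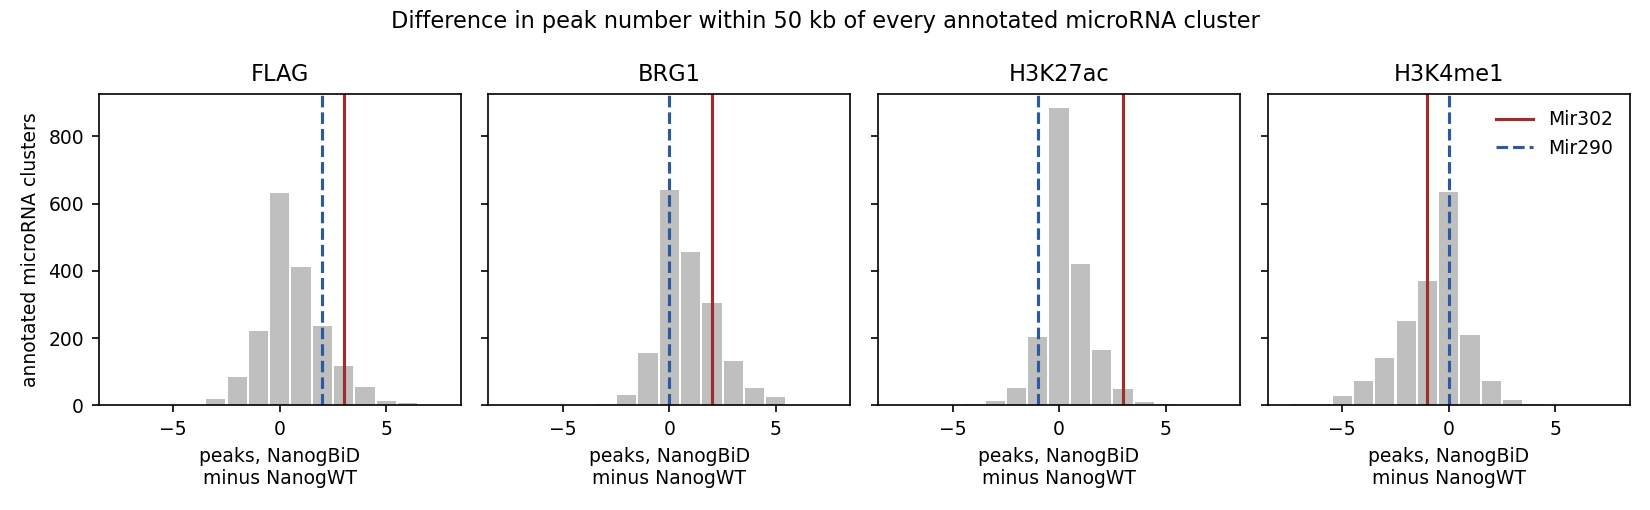
Number of annotated microRNA clusters (of 1802) by the difference in the number of peaks within 50 kb, NanogBiD minus NanogWT, for each target. Lines mark Mir302 (solid) and Mir290 (dashed). Mir302 lies right of the mode for FLAG (3), BRG1 (2) and H3K27ac (3), and Mir290 lies at 0 for BRG1 and left of the mode for H3K27ac.

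MicroRNAs of related or opposite function were described from fixed lists, by peaks within 5 kb. Of all 1802 clusters, 33.5% had a FLAG peak within 5 kb in NanogWT and 37.3% in NanogBiD, and for BRG1 the shares were 26.4% and 32.4%, for H3K27ac 29.9% and 33.2%, and for H3K4me1 41.6% and 36.8%. Peaks of all 4 targets in both arms were found at 15.8%. FLAG in NanogBiD only was found at 8.38%. The lists below are short, and a count is read only beside these shares. The listed relatives, which were microRNAs with a similar seed and their cluster neighbours, fell in 3 clusters. Those of Mir17 to Mir92-1, which promote cell growth, and of Mir106b, Mir93 and Mir25 had peaks of all 4 targets in both arms, and that of Mir106a, Mir20b and Mir363 had none. At Mir17 the FLAG heights were 20 tags in NanogWT and 17 in NanogBiD and the BRG1 heights 15 and 14. At Mir106b they were 19 and 20 for FLAG and 18 and 22 for BRG1.

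Of 4 epithelial clusters, 0 had a BRG1 peak in either arm, and too few were listed to set this apart from the shares above. FLAG was found at Mir200a, Mir200b and Mir429 in both arms (9 tags in NanogWT and 12 in NanogBiD) and at Mir141 and Mir200c in NanogWT only (14 tags). These families hold back the transition from epithelium to mesenchyme. H3K27ac was found at 3 of the 4 in both arms, including 11 and 22 tags at Mir200a. Of 11 clusters known from fibroblasts or from differentiation, 5 had FLAG in both arms, 2 in NanogBiD only and 4 in neither. BRG1 was found in both arms at 4 of them, in NanogWT only at 1 (Mirlet7b, 13 tags), in NanogBiD only at 0 and in neither arm at 6. Mir21a, abundant in fibroblasts, had the highest FLAG and BRG1 values of these microRNA lists, with FLAG heights of 54 tags in NanogWT and 63 in NanogBiD and BRG1 heights of 45 and 56, and had no H3K27ac peak within 5 kb in either arm. Mir199a-2 and Mir214, of mesenchymal cells, had FLAG heights of 35 and 41 and BRG1 heights of 30 and 34. At Mirlet7c-1, of the let-7 family that promotes differentiation, BRG1 had 11 tags in NanogWT and 24 in NanogBiD, and FLAG 26 and 31.

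The genes that make microRNAs were examined within 2 kb of their start sites. Drosha and Dgcr8, which cut the hairpin out in the nucleus, Xpo5, which exports it, Dicer1, which cuts it again, Tarbp2, a partner of Dicer that binds double-stranded RNA, and Ago2, which holds the mature strand, had FLAG, BRG1 and H3K27ac peaks in both arms, 6 of the 9 genes listed. All 3 targets had such peaks at 45.7% of all protein-coding genes. Their FLAG heights ran from 17 to 36 tags in NanogWT and from 16 to 39 in NanogBiD. Lin28a, which blocks the maturation of let-7, had a FLAG peak in NanogBiD only (10 tags) and no peak of another target. The share of all genes with FLAG in NanogBiD only at a start site is not given here. Lin28b had BRG1 peaks (10 and 9 tags) and H3K4me1 peaks (13 and 15 tags) in both arms, and no FLAG or H3K27ac peak. Trim71, a target of let-7, had no peak.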

How the data were processed

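CUT&Tag was measured in 8 libraries, 1 for each of 4 targets in 2 arms. Per the methods, the authors trimmed reads (Trim Galore 0.6.4), aligned them to mm10 (Bowtie2 2.4.5), filtered them (SAMtools 1.16.1), merged replicates and called peaks (MACS 1.4.2), with 1 tag kept per position and no control named. How many replicates were merged was not stated for each list, and the labels and methods differ in the library kit and the number of cells. The deposited peak lists hold a score and the deposited summit lists a signal, the tag pileup; neither is scaled to depth. Summits were joined to peaks by name. Hairpins and genes were from GENCODE vM21, and sequences from GRCm38.p6 and RefSeq. The members and lists were chosen with earlier results of these data known. Named regions overlapped a cluster or lay within 5 kb, had FLAG and BRG1 in 1 arm only, or were among the 3 highest FLAG summits of a window. Merging was tested on simulated data. Python 3.11.15, pandas 2.3.3 and SciPy 1.17.1 were used. Alternatives were limits on the score (100 or more), on list size (the best 20000 by score) and on height (15 tags or more), flanks of 20 kb and 100 kb, assignment by summit, the span of the listed members alone, summit windows of 100 bp on either side, gaps of 500 bp, heights divided by the median ratio, and scores in place of heights.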

Additional observations from a re-analysis of the deposited data

How the results depend on the processing

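Of 92 values recomputed under the alternatives, 28 moved (a count by more than 1.5 times, a ratio beyond its interval) and 64 did not. Differences are numbers of peaks, NanogBiD minus NanogWT. In the main setting the Mir302 window had FLAG 3, BRG1 2, H3K27ac 3 and H3K4me1 -1, and the Mir290 window had FLAG 2, BRG1 0, H3K27ac -1 and H3K4me1 0. With a score of at least 100, BRG1 at Mir302 was 1, and at Mir290 FLAG was 0, BRG1 -1 and H3K27ac 0. With the 20000 highest-scoring peaks, Mir302 had FLAG 1, BRG1 1 and H3K4me1 0, and Mir290 had FLAG 0, BRG1 -1 and H3K27ac 0. With heights of at least 15 tags, Mir302 had FLAG 1, BRG1 1, H3K27ac 0 and H3K4me1 -2, and Mir290 had FLAG 0 and H3K27ac 0. With flanks of 20 kb, Mir302 had FLAG 1 and BRG1 1, with 0 regions of FLAG and BRG1 in NanogBiD only (1 in the main setting), and Mir290 had FLAG 0, BRG1 1 and H3K27ac 0. With flanks of 100 kb, Mir302 had H3K27ac 5, H3K4me1 -4 and 2 such regions, and Mir290 had FLAG 4, H3K27ac -2 and H3K4me1 -1. The causes were not tested, beyond fewer peaks under a limit and fewer or more bases under another flank. The NanogWT FLAG peak at the start of Mir302, with a score of 72.7 and 8 tags, was lost under the limits on score, list size and height, which left FLAG there in NanogBiD only, and the NanogBiD H3K27ac peak there, of 12 tags, was lost under the limit on height. Under the same limits the Mir302 window kept 1 region where both FLAG and BRG1 were in NanogBiD alone, but the region was the start of Mir302 in place of Ank2. With scores in place of heights the FLAG ratio at the start of Mir302 was 3.73, and on the log2 scale the FLAG ratio at the Nlrp12 region went from -0.22 to 0.26, with an interval for heights that included no change. No paired analysis was possible because there was 1 library in each group. With 1 merged library per group and unknown depth, a difference between arms cannot be set against the spread between cultures, and a peak not called is not a site without tags.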
